A study of Rattus norvegicus with 9 samples.

Results

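Granulocyte-monocyte progenitors are the marrow cells that give rise to neutrophils and monocytes. From healing rat tibia, 1513 of 114232 cells in 8 single-cell libraries were chosen under that name, by the rule given next. A barcode was kept as a cell when it held at least 200 genes and at most 20% mitochondrial unique molecular identifiers (UMIs, each of which counts 1 captured transcript). A cell was called a progenitor when the proteins of the first granule to form, the proteases Elane, Prtn3 and Ctsg and the peroxidase Mpo, together gave at least 20 of every 10000 UMIs and the cell held at least 3000 UMIs. The high level of these 4 transcripts is thus how the cells were chosen and is described here, not tested. All 4 were detected in 1432 of the 1513 progenitors (94.6%). The median sum was 125 UMIs per 10000, the quartiles were 45.6 and 319.6, and the highest was 973.

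The samples came from Sprague-Dawley rats of 6 to 8 weeks with a 3-mm circular osteotomy of the proximal tibia and a 4-mm skin wound on the foot of the same side. In the TO group the osteotomy was left without shock wave, and in the TOE group radial extracorporeal shock wave therapy, a train of pressure pulses from a handheld applicator, was given to the osteotomy on days 2 and 4. Each library is named by group, day and hours to collection, so that TOE_4d_24h was taken 24 h after the day 4 session and TO_2d_0h before any session. Cells came from dissociated tissue of the osteotomy site, and the design text gives 9 rats for 9 samples, without saying which rat gave which. TO_2d_24h was not analysed here. Each condition was 1 library, and no difference between conditions has a replicate or a test. All intervals below cover counting error alone.

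In marrow, progenitors on the neutrophil path pass through the promyelocyte, which fills azurophil (primary) granules with serine proteases, myeloperoxidase and, in rats, neutrophil defensins, before later stages make secondary granules. The transcription factors Cebpa and Spi1 act early, Gfi1 and Cebpe drive the granulocyte branch, and Irf8 and Klf4 the monocyte branch. Ms4a3, a membrane protein, marks cells committed to these lineages.

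The stretches just upstream of 6 of the genes described below are shown, and no link between their motifs and the levels was tested. They cover the 250 bases before the annotated start, 5′ to 3′ on the strand of the gene, from RefSeq on GRCr8, a later assembly than the one the libraries were counted on. The promoter table held 6 of the 7 genes that define the cells, and Elane was not among them. Cebpe and Gfi1 were held but are not shown, and their motifs are not given. Capitals mark the cores bound by PU.1, the product of Spi1 (GAGGAA, in 23.3% of 33469 promoter stretches of this length), by MYB (AACGG, 14.3%), by C/EBP factors (TTGCNNAA, 9.22%) and by RUNX factors (TGTGGT, 14.5%), searched on both strands with no overlap between matches.
Mpo (chr10:73092152-73092401, plus strand): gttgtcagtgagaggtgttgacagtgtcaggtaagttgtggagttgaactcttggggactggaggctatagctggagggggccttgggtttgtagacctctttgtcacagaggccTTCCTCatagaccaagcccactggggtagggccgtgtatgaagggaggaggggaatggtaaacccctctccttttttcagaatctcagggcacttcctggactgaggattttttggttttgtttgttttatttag
Prtn3 (chr7:10476197-10476446, minus strand): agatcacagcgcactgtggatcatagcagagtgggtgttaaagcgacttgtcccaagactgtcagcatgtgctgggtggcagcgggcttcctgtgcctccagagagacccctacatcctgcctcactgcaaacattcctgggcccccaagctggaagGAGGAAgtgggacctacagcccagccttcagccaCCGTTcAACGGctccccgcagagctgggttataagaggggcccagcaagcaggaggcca
Ctsg (chr15:33907597-33907846, minus strand): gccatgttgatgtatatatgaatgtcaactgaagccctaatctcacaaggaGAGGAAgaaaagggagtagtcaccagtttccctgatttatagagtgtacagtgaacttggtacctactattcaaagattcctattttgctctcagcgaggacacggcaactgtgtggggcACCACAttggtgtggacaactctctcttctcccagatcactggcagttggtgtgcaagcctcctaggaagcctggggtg
Ms4a3 (chr1:217904908-217905157, minus strand): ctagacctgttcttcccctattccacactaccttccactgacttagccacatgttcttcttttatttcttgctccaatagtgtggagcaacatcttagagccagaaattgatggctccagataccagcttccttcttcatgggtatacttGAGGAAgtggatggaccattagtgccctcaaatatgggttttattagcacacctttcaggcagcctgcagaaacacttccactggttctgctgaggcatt
Np4 (chr16:77199643-77199892, minus strand): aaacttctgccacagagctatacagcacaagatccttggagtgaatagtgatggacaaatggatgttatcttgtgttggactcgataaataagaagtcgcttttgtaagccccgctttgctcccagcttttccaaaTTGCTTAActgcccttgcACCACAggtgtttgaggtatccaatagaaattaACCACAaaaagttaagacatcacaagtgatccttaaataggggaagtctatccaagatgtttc
RatNP-3b (chr16:77248978-77249227, minus strand): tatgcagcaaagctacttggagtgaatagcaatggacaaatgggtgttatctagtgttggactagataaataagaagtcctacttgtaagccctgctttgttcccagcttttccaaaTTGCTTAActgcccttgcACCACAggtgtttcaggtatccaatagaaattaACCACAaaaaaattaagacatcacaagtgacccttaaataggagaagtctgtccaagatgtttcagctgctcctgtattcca
A PU.1 core stood in Mpo, Prtn3, Ctsg and Ms4a3, and in neither defensin. The defensins Np4 and RatNP-3b held a C/EBP core followed by a pair of RUNX cores in the same order, Prtn3 a pair of MYB cores on opposite strands, and Ctsg 1 RUNX core. A match is a run of letters and not evidence of binding.

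Progenitors made up 1.32% of all cells and 0.914% to 1.82% of each library. Among TO libraries there were 163 of 14511 cells (1.12%, exact binomial 95% interval 0.958 to 1.31) in TO_2d_0h, 191 of 15318 cells (1.25%, exact binomial 95% interval 1.08 to 1.44) in TO_2d_4h, 146 of 12733 cells (1.15%, exact binomial 95% interval 0.969 to 1.35) in TO_4d_4h and 234 of 14104 cells (1.66%, exact binomial 95% interval 1.45 to 1.88) in TO_4d_24h. Among TOE libraries there were 309 of 16945 cells (1.82%, exact binomial 95% interval 1.63 to 2.04) in TOE_2d_4h, 132 of 14435 cells (0.914%, exact binomial 95% interval 0.766 to 1.08) in TOE_2d_24h, 161 of 13857 cells (1.16%, exact binomial 95% interval 0.990 to 1.35) in TOE_4d_4h and 177 of 12329 cells (1.44%, exact binomial 95% interval 1.23 to 1.66) in TOE_4d_24h. The highest share was in TOE_2d_4h and the lowest in TOE_2d_24h, the next collection after the same session. In the matched pairs the TOE share over the TO share was 1.46 (95% counting interval 1.22 to 1.76) at 2d_4h, 1.01 (0.805 to 1.28) at 4d_4h and 0.865 (0.708 to 1.06) at 4d_24h. The 2d_4h ratio turned to 0.408 when cells of 1000 to under 3000 UMIs were admitted, of which TO_2d_4h held 625, 614 of them with haemoglobin markers. A share also moves with how many other cells were recovered, which cannot be told apart from a change in progenitors.

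**Figure D1:**
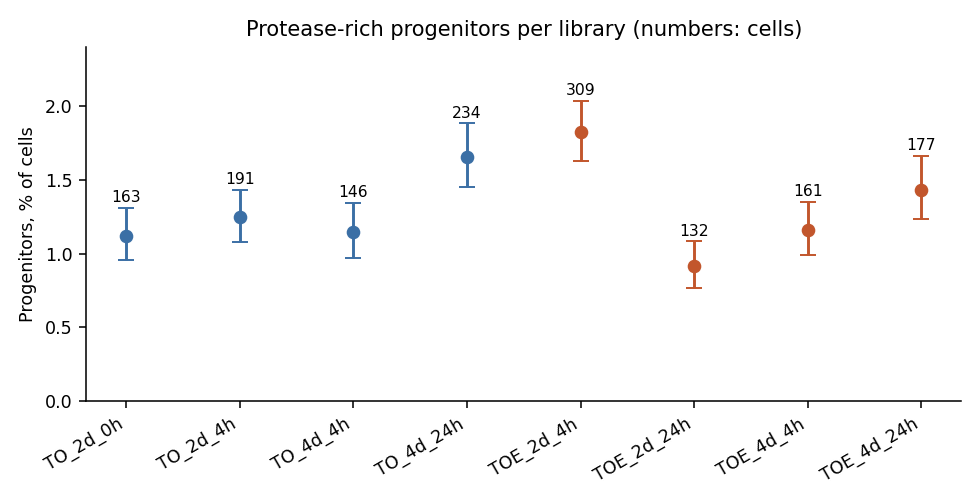
Share of cells called progenitors in each of the 8 libraries, in percent, with exact binomial 95% intervals (TO blue, TOE orange) and the number of progenitors above each point. TOE_2d_4h sits highest at 1.82% and TOE_2d_24h lowest at 0.914%, while the 4d_4h libraries lie at 1.15% and 1.16%.

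The progenitors were deeply read, with a median of 25583 UMIs per cell and library medians from 16078 in TOE_4d_24h to 39753 in TOE_4d_4h. The libraries held 95954800 to 144146202 UMIs in all. Of the cell barcode sequences, 1601 (1.39%) occurred in more than 1 library, and none of the progenitors shared one. Markers of another cell type passed a set minimum in 241 progenitors, called co-marked here, of which 159 carried B cell markers, 67 mast cell and basophil markers, 21 mesenchymal, 19 erythroid and 2 macrophage markers. No progenitor passed for T and NK, dendritic, endothelial or plasma cell markers. The summed erythroid markers stood at 20.7 CPM in the progenitors of TOE_4d_24h and reached 3066 CPM elsewhere, where CPM is the UMIs of a gene per 1000000 UMIs summed over the progenitors of a library. The summed mesenchymal markers ranged from 79.3 CPM to 2580.5 CPM, the latter in TOE_2d_24h, where 11 progenitors were co-marked for them.

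Elane, neutrophil elastase, stood at 6516 CPM in TO_2d_0h, 8135 in TO_2d_4h, 7554 in TO_4d_4h, 7941 in TO_4d_24h, 6867 in TOE_2d_4h, 5095 in TOE_2d_24h, 6445 in TOE_4d_4h and 6084 in TOE_4d_24h. Ctsg, cathepsin G, stood at 6294 CPM in TO_2d_0h, 6055 in TO_2d_4h, 7396 in TO_4d_4h, 8592 in TO_4d_24h, 6293 in TOE_2d_4h, 4605 in TOE_2d_24h, 5574 in TOE_4d_4h and 8498 in TOE_4d_24h. Prtn3, proteinase 3, ranged from 1878 CPM in TOE_2d_24h to 5071 CPM in TO_2d_4h, and Mpo, which makes hypochlorous acid, from 2279.5 CPM in TOE_2d_24h to 3289.5 CPM in TO_4d_4h. All 4 were lowest in TOE_2d_24h, whose summed level was 13858 CPM against 18077 to 22730 CPM in the other libraries. In Cd79-marked cells of the same libraries, which carry at least 10 UMIs of the B cell genes Cd79a and Cd79b per 10000 and should lack these transcripts, Elane stood at 13.2 to 31.1 CPM, which was taken as the background of free RNA.

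Of the markers not used to choose the cells, Ms4a3 and Cebpe stood above Cd79-marked cells in every library, and Gfi1 in 2 of 8. Ms4a3 stood at 779 CPM in TO_2d_0h, 733 in TO_2d_4h, 747 in TO_4d_4h, 711 in TO_4d_24h, 620 in TOE_2d_4h, 867 in TOE_2d_24h, 678 in TOE_4d_4h and 623 in TOE_4d_24h, against 3.84 to 5.38 CPM in Cd79-marked cells. After every cell was thinned to 3000 UMIs, Ms4a3 was found in a median of 70.5% of progenitors per library (range 62.1% to 77.9%) and 1.5% of Cd79-marked cells, and unthinned in 90.7% and 2.95%. Cebpe, the factor needed for later granules, stood at 61.0 CPM in TO_2d_0h, 105 in TO_2d_4h, 90.6 in TO_4d_4h, 73.8 in TO_4d_24h, 98.1 in TOE_2d_4h, 94.0 in TOE_2d_24h, 105 in TOE_4d_4h and 90.4 in TOE_4d_24h. It was found in 21.5% of thinned progenitors (68.9% unthinned) and 1.15% of thinned Cd79-marked cells. Gfi1, a repressor of the monocyte program, stood at 27.3 CPM in TO_2d_0h, 85.3 in TO_2d_4h, 84.6 in TO_4d_4h, 31.4 in TO_4d_24h, 50.9 in TOE_2d_4h, 46.5 in TOE_2d_24h, 47.4 in TOE_4d_4h and 49.7 in TOE_4d_24h. Gfi1 stood at 55.9 to 110.1 CPM in Cd79-marked cells, whose precursors also use it, and was found in 16.4% of thinned progenitors and 17.3% of thinned Cd79-marked cells.

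Genes of the stem and early progenitor state differed widely in level. Cd34, a stem cell surface protein, stood at 6.05 to 26.1 CPM, Kit, the stem cell factor receptor, at 8.26 to 31.3 CPM and Flt3, the receptor of another early cytokine, at 8.79 to 35.8 CPM. At least 1 UMI of these was found in a median of 7.04% of thinned progenitors, against 1.70% of Cd79-marked cells, and unthinned in 29.8% and 4.25%. At these levels a thinned cell holds on average under 1 UMI of each, so the shares do not limit how many cells express them. Cd48, a surface protein that many blood cells share, stood at 159 to 233 CPM, Lmo2, a cofactor of blood stem cells, at 76.5 to 113 CPM and Sox4 at 32.1 to 99.0 CPM. Mecom, Procr and Hlf stood at no more than 1.49 CPM in any library. Defensins, antimicrobial peptides that rats pack into azurophil granules, made up 57809 to 118370 CPM of progenitor RNA. Np4 stood at 28054 CPM in TO_2d_0h, 28499 in TO_2d_4h, 21406 in TO_4d_4h, 17116 in TO_4d_24h, 20357 in TOE_2d_4h, 27385 in TOE_2d_24h, 18294 in TOE_4d_4h and 18787 in TOE_4d_24h, and RatNP-3b at 59192 CPM in TO_2d_0h, 31415 in TO_2d_4h, 19750 in TO_4d_4h, 29179 in TO_4d_24h, 22272 in TOE_2d_4h, 64812 in TOE_2d_24h, 21966 in TOE_4d_4h and 34255 in TOE_4d_24h. The defensin genes are near copies of each other, so the split between them is uncertain. The name progenitor stands below for the cells chosen by the sum of the 4 transcripts, and says nothing of their potency.

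Among other genes of the azurophil granule and of its making, Srgn ranged from 12152 to 18322 CPM, Plac8, a small protein of myeloid cells, from 3289.8 to 4183 CPM, Nkg7 from 1371 to 1929 CPM and Mgst1, a glutathione transferase, from 1598 to 2795 CPM. Lyz2 stood at 3171 CPM in TO_2d_0h, 5825 in TO_2d_4h, 6460.3 in TO_4d_4h, 3447 in TO_4d_24h, 9372 in TOE_2d_4h, 6695 in TOE_2d_24h, 10646 in TOE_4d_4h and 3538 in TOE_4d_24h. Hp, haptoglobin, whose place in this list is uncertain, stood at 19.5 to 334 CPM. Prss57, Gstm1 and Ctsc stood at 9.10 to 31.8 CPM, 30.7 to 75.4 CPM and 69.5 to 119.7 CPM. Among transcription factors, Zeb2 stood at 463 to 822 CPM, Runx1 at 356 to 575 CPM, Myb at 237 to 383 CPM and Spi1 at 133 to 297 CPM, well above Cebpa at 17.6 to 55.6 CPM. These levels count the 3′ ends of transcripts, so they are not divided by length. Of the receptors, Csf2ra, of granulocyte-macrophage colony-stimulating factor, stood at 42.4 to 73.2 CPM, Il3ra, of interleukin 3, at 32.3 to 57.2 CPM, Csf1r at 21.7 to 34.9 CPM, Csf3r at 15.0 to 36.6 CPM and Cxcr4, which holds cells in marrow, at 50.4 to 133 CPM.

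The defensins divided the progenitors into cells with hardly any and cells with very many. Of the 1513 cells, 462 (30.5%) held under 10 defensin UMIs per 10000, 309 held 10 to under 100, 224 held 100 to under 1000 and 518 (34.2%) held 1000 or more. These 4 classes, chosen after the data were seen, are ranges and not cell types. The summed defensin level in Cd79-marked cells was 720.5 to 1641 CPM, and in the lowest class of progenitors its library median was 690 CPM, which the limit of that class holds under 1000. Every library held all 4 classes, with 19.6% to 38.5% of its progenitors in the lowest and 27.3% to 45.5% in the highest. Median depth was 38888, 27151, 19898 and 19502 UMIs from the lowest to the highest class. Co-marked cells numbered 94 of 462, 58 of 309, 34 of 224 and 55 of 518 in the same order.

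**Figure D2:**
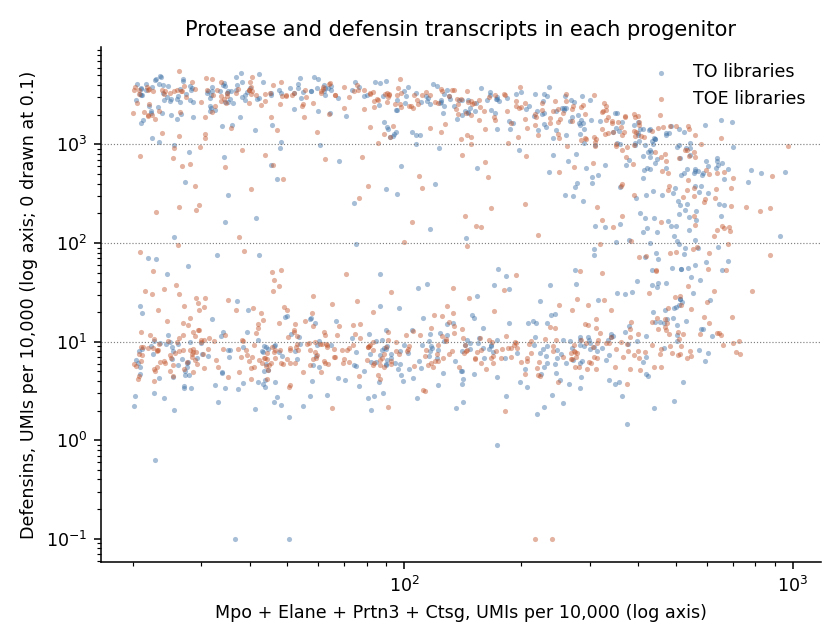
Each point is 1 of the 1513 progenitors, with the summed Mpo, Elane, Prtn3 and Ctsg UMIs per 10000 on the x axis and the summed defensin UMIs per 10000 on the y axis, both on log axes (TO blue, TOE orange, dotted lines at 10, 100 and 1000). A lower band near 10 defensin UMIs per 10000 and an upper band above 1000 meet through cells of the highest protease sums.

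Protease transcripts were highest between the extremes. Elane, Prtn3, Ctsg and Mpo chose the cells, over a total that includes defensins, so the choice constrains their levels in each class. Over the 4 defensin classes, in order, and with defensins left out of the total, the median library level of Elane was 3906, 9125, 16879 and 7073 CPM, that of Prtn3 2030, 6508, 9640 and 3517 CPM and that of Ctsg 4305, 9131, 14384 and 5314 CPM. Mpo followed with 1979.7, 3011, 5185 and 4538 CPM. The peak of Elane, Prtn3 and Ctsg fell in the class of 100 to under 1000 defensin UMIs, and the level of Elane in the class above it spanned 5624 to 9655 CPM over libraries. Of the 15 genes of the azurophil granule and its processing, 6 stood higher in each class than in the class before and 1, Fcnb, lower in each. In the highest class 11 stood higher than in the lowest and 4 lower, and the share of all genes that did so was not counted. Of the 6, Srgn, the proteoglycan core that packs granule proteins, stood at 6126, 11407, 23986 and 31053 CPM, Ctsc, which activates the proteases, at 34.4, 71.2, 174 and 230.4 CPM and Serpinb1a, an inhibitor of them, at 1027, 1680, 3170.3 and 5704 CPM.

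Cebpe and Gfi1, of the granulocyte branch, and Ms4a3, which marks both branches, stood higher class by class. Several genes of the monocyte branch stood higher in the lower pair of classes than in the upper pair. Ms4a3 stood at 223, 482, 1413 and 1848 CPM, Cebpe at 35.1, 58.0, 152 and 217 CPM and Gfi1 at 27.0, 35.7, 77.2 and 129 CPM. Irf8, by contrast, stood at 108, 45.2, 6.52 and 7.03 CPM and Klf4 at 102, 58.3, 24.1 and 21.5 CPM, with Csf1r, the receptor for macrophage colony-stimulating factor, at 45.1, 23.7, 5.04 and 6.82 CPM. Of the 14 monocyte lineage genes 12 stood lower in the highest class than in the lowest and 2 higher, with Fcgr1a, an IgG receptor, at 3.00, 6.4, 11.5 and 18.3 CPM and Lgals3, galectin 3, at 269.7, 349, 311 and 365 CPM. Lists of other kinds were mostly lower too, with 14 of 18 S phase, 11 of 18 G2M, 11 of 15 endoplasmic reticulum folding and 8 of 10 heat shock genes. Of 17 immediate-early genes 11 were higher. The share of all genes lower in the highest class was not counted. Fcnb, a ficolin of early myeloid cells, stood at 2017, 1410.3, 172 and 124 CPM and Lyz2, lysozyme, at 8491, 6874, 2921 and 3798 CPM. Over the 8 libraries the lowest and highest class ranged over 132 to 275 and 1699.6 to 2051 CPM for Ms4a3. The ranges were 22.6 to 73.4 and 127 to 295 CPM for Cebpe, and 67.0 to 164 and 1.78 to 11.8 CPM for Irf8. How many of all genes differ as far between these classes was not counted. Spi1 and Runx1, which act in all these cells, differed less, at 229.7, 237, 270.2 and 299.6 CPM and 445, 356, 442 and 527 CPM.

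Several early genes were highest in the class with the fewest defensin UMIs. Cd34 stood at 36.9, 5.11, 0 and 0 CPM, Flt3 at 57.6, 9.24, 0 and 1.27 CPM, Meis1 at 18.4, 7.07, 2.46 and 0.466 CPM and Hoxa9 at 11.2, 2.74, 0 and 0 CPM. Kit and Lmo2 ran the same way, at 18.6, 13, 9.10 and 3.63 CPM and 126, 84.3, 71.5 and 62.2 CPM, and Cd48 did not, at 195, 216, 239 and 219 CPM. At the other end, most genes of later stages stood higher in the highest class than in the lowest. These were 10 of 11 secondary and tertiary granule genes and 7 of 10 late neutrophil genes, the other 3 late genes being lower. The share of all genes higher in the highest class was not counted, so these counts have no background. Camp, cathelicidin of the secondary granule, stood at 116, 189.7, 203 and 1344 CPM, Olfm4, a protein of a neutrophil subset, at 3.6, 4.65, 13.4 and 171 CPM and S100a9, a calcium-binding protein of mature neutrophils, at 1104, 1968, 2219.5 and 16013 CPM. Genes of dividing cells were present in every class, with Mki67 at 270, 231, 183 and 242 CPM and Top2a at 223, 183, 108 and 138 CPM, and the summed S phase list at 1216, 1124, 1038 and 1115 CPM. Because classes differ in how much of each cell is defensin RNA, all these levels exclude defensins from the total. The classes use the same cells as the selection, so no test was made.

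**Figure D3:**
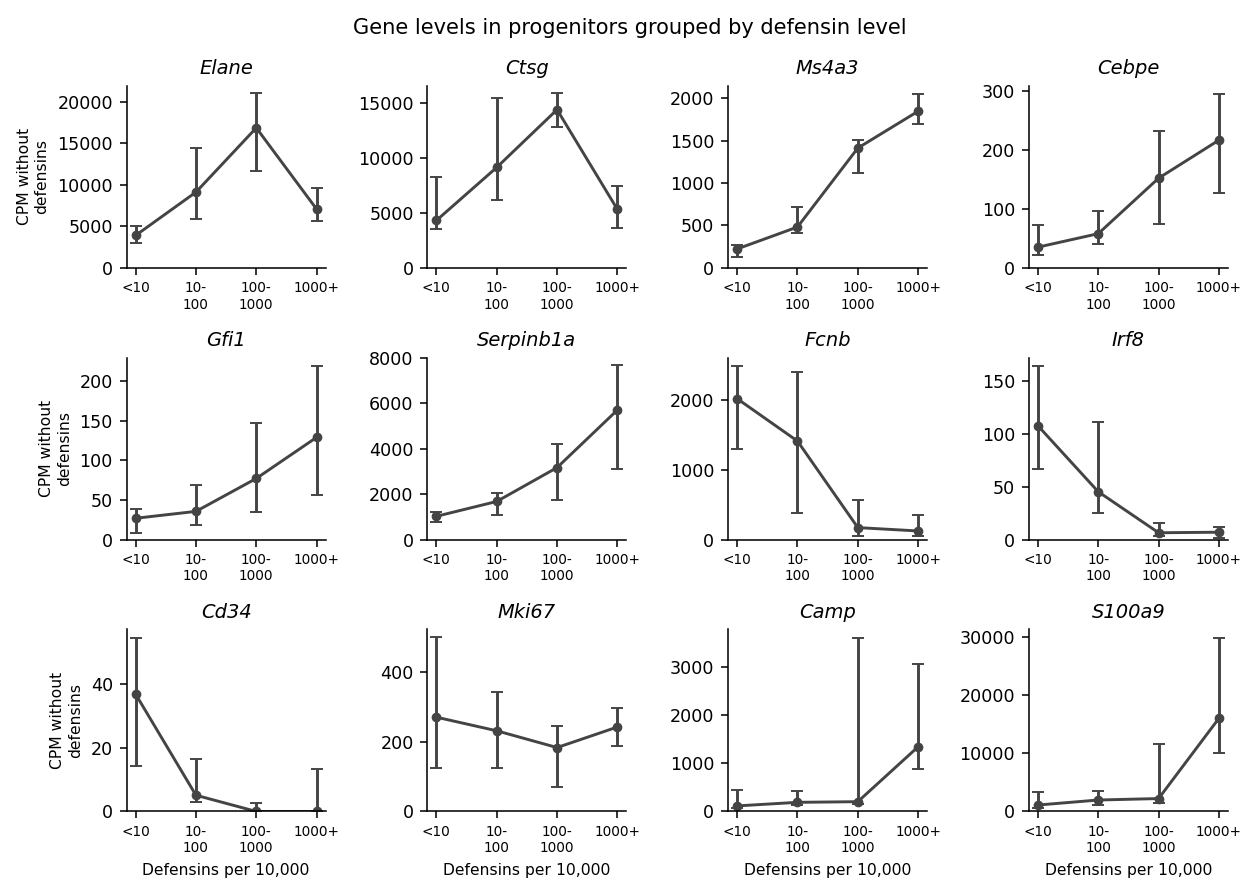
Level of 12 genes, in CPM with defensins left out of the total, in progenitors grouped by defensin UMIs per 10000. Points are medians over 8 libraries and bars reach from the lowest to the highest library. Elane and Ctsg peak at 100 to under 1000, Ms4a3, Cebpe and Gfi1 climb to the right, and Fcnb, Irf8 and Cd34 stand highest at the left.

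Among progenitors grouped by the protease sum that chose them, the 418 cells at 20 to under 50, 258 at 50 to under 100, 256 at 100 to under 200 and 581 at 200 and over were compared. With the 4 chosen genes left out of the total, Ms4a3 stood at 424, 456, 636 and 1078 CPM, Cebpe at 68.3, 69.3, 74.9 and 130.5 CPM and Myb, a factor of dividing progenitors, at 203, 232, 268 and 416 CPM. Fcnb stood at 1986, 2168, 1333 and 249 CPM, Irf8 at 83.3, 87.5, 85.8 and 14.9 CPM and Flt3 at 48.0, 21.4, 23.5 and 4.67 CPM. S100a8 stood at 4683, 2507, 2021 and 1068 CPM, highest in the cells with the fewest protease UMIs. The endoplasmic reticulum folding list, the chaperones of secreted proteins, stood at 3315, 4204, 5074 and 7369 CPM.

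At the threshold, 485 cells of at least 3000 UMIs had 10 to under 20 protease UMIs per 10000 and were left out, and 208 had 20 to under 30 and were kept. Co-marked cells were 32.0% of the former and 24.5% of the latter, against 11% of those at 200 and over. All 4 genes were detected in 54.8% of the cells just outside and 77.9% of those just inside. Ms4a3 stood at 341 CPM just outside and 380.4 CPM just inside, Cebpe at 65.7 and 64.4 CPM and defensins at 93057 and 111730 CPM. These levels were close on either side of the threshold.

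A first set of genes, with Cebpe and Gfi1 of the granulocyte branch, and a monocyte set were looked for in the same cells. In thinned progenitors at least 1 UMI of Cebpe, Gfi1, Ms4a3 or Fcnb was found in a median of 92.2% per library. In thinned Cd79-marked cells that share was 30.15%. At least 1 UMI of Irf8, Ly86, Csf1r or Ccr2 was found in 19.4% of progenitors, and 18.4% held both sets (13.5% to 27.3%, 285 cells in all). The first set was found in nearly all progenitors, which fixes most of this overlap. That set also includes Ms4a3, which marks both branches, and Fcnb, which like Irf8 stood highest in the lowest defensin class. It is thus not a set of the granulocyte branch alone. The overlap thus does not show transcripts of both branches in the same cell. The monocyte set was found in 21.1% of Cd79-marked cells at the same depth, which make Irf8 and Ly86 themselves, found in 11.1% and 9.75% of them, so they give no background for the set. Csf1r alone was found in 5.40% of progenitors against 1.65%, and Ccr2 in 6.47% against 1.40%. Csf3r, the receptor for granulocyte colony-stimulating factor, was found in 7.45% against 0.90%. Mki67 or Top2a, genes of dividing cells, were found in 54.9% (unthinned 90.7%) against 34.1% of Cd79-marked cells (unthinned 41.1%), which include cycling precursors.

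The progenitors were set beside later cells of the neutrophil path in the same libraries, 8637 neutrophil-marked cells with at least 50 UMIs of Camp, Lcn2 and Ngp per 10000, all at 3000 UMIs or more. Of 8974 genes with at least 50 UMIs in each library, 19.0% were over 2-fold higher in progenitors in every library and 8.76% over 2-fold lower. Outside the chosen genes, those with the largest median ratios were Fkbp11 (113 to 220.3 CPM against 3.47 to 14.1), a folding enzyme of secretory cells, Dnph1 (60.6 to 114 CPM against 1.97 to 4.72), Ramp1 (98.7 to 262 CPM against 5.20 to 10.6), Mtln (58.1 to 94.5 CPM against 2.33 to 5.47) and Serf1 (39.8 to 95.8 CPM against 1.22 to 4.75). The smallest ratios were those of a transcript listed as LOC120102202, the secondary granule genes Ngp and Lcn2, Cd177 (2.59 to 23.1 CPM against 538 to 801), a neutrophil surface protein, and Alox5 (0.895 to 4.13 CPM against 101 to 215), the enzyme of leukotriene synthesis. Of the 10 secondary and tertiary granule genes compared, 10 were over 2-fold lower in every library, which the choice of the neutrophil-marked cells fixes in part, since Camp, Lcn2 and Ngp are 3 of them. Of 15 endoplasmic reticulum folding genes 12 were over 2-fold higher, and the summed list stood at 3.97 (3.20 to 6.21) times its level in neutrophil-marked cells (median and range over libraries). Defensins did not separate the populations, with 0 of 6 higher and a summed ratio of 1.05 (0.783 to 1.44). Cebpe was lower in progenitors, at 61.0 to 105 CPM against 275 to 371 CPM, and Ms4a3 higher, at 620 to 867 CPM against 92.4 to 233 CPM. Both sets were chosen by marker levels, so these are descriptions.

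Beside 7683 monocyte-marked cells, with at least 10 UMIs of F13a1, Vcan, Ccr2 and Csf1r per 10000, 3.51% of 9153 genes were over 2-fold higher in progenitors in every library and 10.8% lower. The largest ratios outside the chosen genes were those of LOC689039 (24.6 to 47.4 CPM against 0.0531 to 0.768), Ms4a3 (620 to 867 CPM against 3.84 to 7.75), RatNP-3b, Defa7 and Prss57 (9.10 to 31.8 CPM against 0 to 0.429), a further serine protease of azurophil granules. The smallest were those of Thbs1 (0.403 to 5.37 CPM against 20.5 to 277), a matrix glycoprotein, Vcan, Fn1 (21.6 to 52.5 CPM against 1269 to 3296), fibronectin, Mal (0.706 to 4.80 CPM against 54.6 to 182) and Cd300le. Of 13 monocyte lineage genes 11 were over 2-fold lower, which the choice of the monocyte-marked cells fixes in part, since 4 of the list were used for it. The exceptions were Irf8, at 40.7 to 94.7 CPM against 43.7 to 142 CPM, and F13a1, which was higher in progenitors in every library, at 91.6 to 178 CPM against 7.91 to 129.5 CPM. Of 11 inflammatory feedback genes, which restrain or relay NF-kB and cytokine signals, 8 were over 2-fold lower, and of 18 S phase genes 6 were over 2-fold higher.

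Beside all 86385 other cells of 3000 UMIs or more, 1.18% of 14908 genes were over 2-fold higher in every library and 16.0% lower. Among the genes furthest above were LOC689039 (24.6 to 47.4 CPM against 0.702 to 2.03), Prss57 (9.10 to 31.8 CPM against 0.283 to 1.19), Nkg7 (1371 to 1929 CPM against 49.4 to 79.8), a granule membrane protein of cytotoxic and myeloid cells, Ms4a3 (620 to 867 CPM against 16.4 to 35.3) and Srgn. Krt79, Spag4, Abo, Sh2d5, Cldn10, Ak7, Erich5, LOC108351956 and LOC102551951 were also among the 15 highest, and Sh2d5 (83.3 to 161 CPM against 7.97 to 11.9) and Krt79 (42.9 to 70.8 CPM against 2.72 to 4.75) were the most abundant of these. Krt79 and Cldn10 are best known from epithelia, and Cldn10 stood at 17.7 to 72.0 CPM over the 8 libraries. Of 15 azurophil granule genes outside the chosen ones 8 were over 2-fold higher and 0 lower.

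The matched pairs asked how progenitors differed with shock wave at the same day and hour. Summed over progenitors, genes with at least 50 UMIs in a pair were compared, and a gene past 2-fold was counted. At 2d_4h, 232 of 10203 genes (2.27%) were past 2-fold higher in TOE and 87 (0.853%) lower. The median log2 ratio of all genes was 0.13 there, and with ratios centred on it the counts were 149 higher and 130 lower. At 4d_4h, 146 of 9663 (1.51%) were higher and 139 (1.44%) lower. At 4d_24h, 564 of 9262 (6.09%) were higher and 203 (2.19%) lower, the most of the 3 pairs, in the library whose progenitors were read least deeply. Over 2-fold in all 3 pairs stood 4 of 8976 genes higher (0.0446%) and 1 lower (0.0111%). None of these counts has a replicate behind it.

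None of the 4 chosen genes, whose level the choice of cells constrains, and none of Ms4a3, Cebpe and Gfi1 was past 2-fold in any pair. Of all genes 2.27%, 1.51% and 6.09% were past it upwards and 0.853%, 1.44% and 2.19% downwards, so a count over so few genes says little. Over the 3 pairs the log2 ratio of TOE over TO was -0.24, -0.23 and -0.38 for Elane and -0.24, -0.14 and -0.19 for Ms4a3. For Cebpe it was -0.10, 0.21 and 0.29, and for Gfi1 -0.75, -0.83 and 0.66. Among the 15 genes of the azurophil granule and its processing, Ms4a3 included, 1, 1 and 0 were past 2-fold higher, beside 2.27%, 1.51% and 6.09% of all genes, and none lower. That gene was Hp, at 61.7 CPM in TO_2d_4h against 201 in TOE_2d_4h and at 83.5 CPM in TO_4d_4h against 334 in TOE_4d_4h. Its level at 4d_24h was 141 CPM in TO and 217 in TOE, and in TO_2d_0h and TOE_2d_24h it was 19.5 and 29.2 CPM. In neutrophil-marked cells Hp stood at 322 to 2294 CPM, over 2-fold above the progenitors in every library. Its place in this list is thus uncertain. In all other cells Hp ranged from 28.6 to 606 CPM, and the log2 ratio of progenitors over them stayed between -1.48 and -0.503. The level of Hp thus moved with that of other cells.

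Heat shock genes, the cytosolic chaperones and their partners, were higher in TOE in sum in every pair. Their sum stood at 3858 CPM in TO_2d_0h, 4353 in TO_2d_4h, 7255 in TO_4d_4h, 5948 in TO_4d_24h, 6413 in TOE_2d_4h, 4453 in TOE_2d_24h, 10357 in TOE_4d_4h and 12304 in TOE_4d_24h. The TOE over TO ratio was 1.47 (95% counting interval 1.45 to 1.5) at 2d_4h, 1.43 (95% counting interval 1.41 to 1.45) at 4d_4h and 2.07 (95% counting interval 2.04 to 2.10) at 4d_24h. In order of the pairs 8, 9 and 9 of 10 genes were higher, where the median log2 ratio of all genes was 0.13, -0.02 and 0.03. At 2d_4h 0 of 10 genes were past 2-fold higher and 1 past 2-fold lower, the last being Hspb1 with a log2 ratio of -2.04, beside 2.27% and 0.853% of all genes. At 4d_4h 0 of 10 genes were past 2-fold higher and 0 past 2-fold lower, beside 1.51% and 1.44%. At 4d_24h 6 of 10 genes were past 2-fold higher and 0 past 2-fold lower, beside 6.09% and 2.19% of all genes, and the median log2 ratio was 1.15 against 0.03 for all genes. Hsph1, a partner of Hsp70 proteins, stood at 352 CPM in TO and 2127 in TOE at 4d_24h. Hspa1a, inducible Hsp70, stood at 717 and 1833 CPM, its near copy Hspa1b at 302 and 651 CPM, and Bag3, a co-chaperone, at 43.6 and 192 CPM. Hspd1, the mitochondrial chaperonin, stood at 552 and 550 CPM. The list was spread over the cells, since the median progenitor held 26.2 UMIs per 10000 in TO_4d_24h and 100.1 in TOE_4d_24h.

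Other cells of the same libraries did not follow a common pattern. At 4d_24h the heat shock sum of TOE over TO was 0.573 in Cd79-marked, 0.959 in neutrophil-marked and 1.86 in monocyte-marked cells, and at 4d_4h it was 1.23 in Cd79-marked, 0.953 in neutrophil-marked and 0.825 in monocyte-marked cells. At 2d_4h it was 0.808 in Cd79-marked, 0.889 in neutrophil-marked and 1.43 in monocyte-marked cells. The untreated baseline TO_2d_0h and the treated TOE_2d_24h stood at 3858 and 4453 CPM in progenitors, so not every treated library was high.

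At 4d_24h immediate-early genes, the first transcription factors induced by a stimulus, were higher in TOE in sum, and the summed inflammatory feedback list was lower. The immediate-early sum stood at 2988 CPM in TO_2d_0h, 3661 in TO_2d_4h, 4887 in TO_4d_4h, 2977 in TO_4d_24h, 2805 in TOE_2d_4h, 6162 in TOE_2d_24h, 4237 in TOE_4d_4h and 5226 in TOE_4d_24h. It was 0.766 and 0.867 times the TO level at 2d_4h and 4d_4h, and 1.76 (95% counting interval 1.72 to 1.79) times at 4d_24h. At 4d_24h 5 of 16 genes were past 2-fold higher and 0 past 2-fold lower, beside 6.09% and 2.19% of all genes, with a median log2 ratio of 0.72 against 0.03 for all genes. The higher genes include Egr1 at 57.5 CPM in TO and 381 in TOE, Fos at 98.4 and 515 CPM and Jun at 547 and 1759.7 CPM. The inflammatory feedback sum, in contrast, was 1.01, 0.90 and 0.634 times the TO level over the pairs. At 4d_24h 1 of 10 genes were past 2-fold higher and 3 past 2-fold lower, beside 6.09% and 2.19% of all genes, with a median log2 ratio of -0.74. Of the 10, 4 were higher in TOE, namely Stat3, Nfkbiz, Ptgs2 and Socs3, and the others were lower. Most of the difference in the sum came from Nfkbia alone. Nfkbia, the inhibitor of NF-kB, stood at 346 CPM in TO_2d_0h, 928 in TO_2d_4h, 1039 in TO_4d_4h, 280.5 in TO_4d_24h, 936 in TOE_2d_4h, 532 in TOE_2d_24h, 949 in TOE_4d_4h and 69.1 in TOE_4d_24h, and was lowest in TOE_4d_24h. Il1b, the cytokine interleukin 1 beta, stood at 15.5 CPM in TO_4d_24h, 1.14 in TOE_4d_24h and 72.5 and 131 in TO_4d_4h and TOE_4d_4h. The same inflammatory sum at 4d_24h was 0.319 in Cd79-marked, 0.314 in neutrophil-marked and 0.421 in monocyte-marked cells, lower in TOE in all of them, whereas the immediate-early sum was 0.458 in Cd79-marked, 0.649 in neutrophil-marked and 1.10 in monocyte-marked cells.

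**Figure D4:**
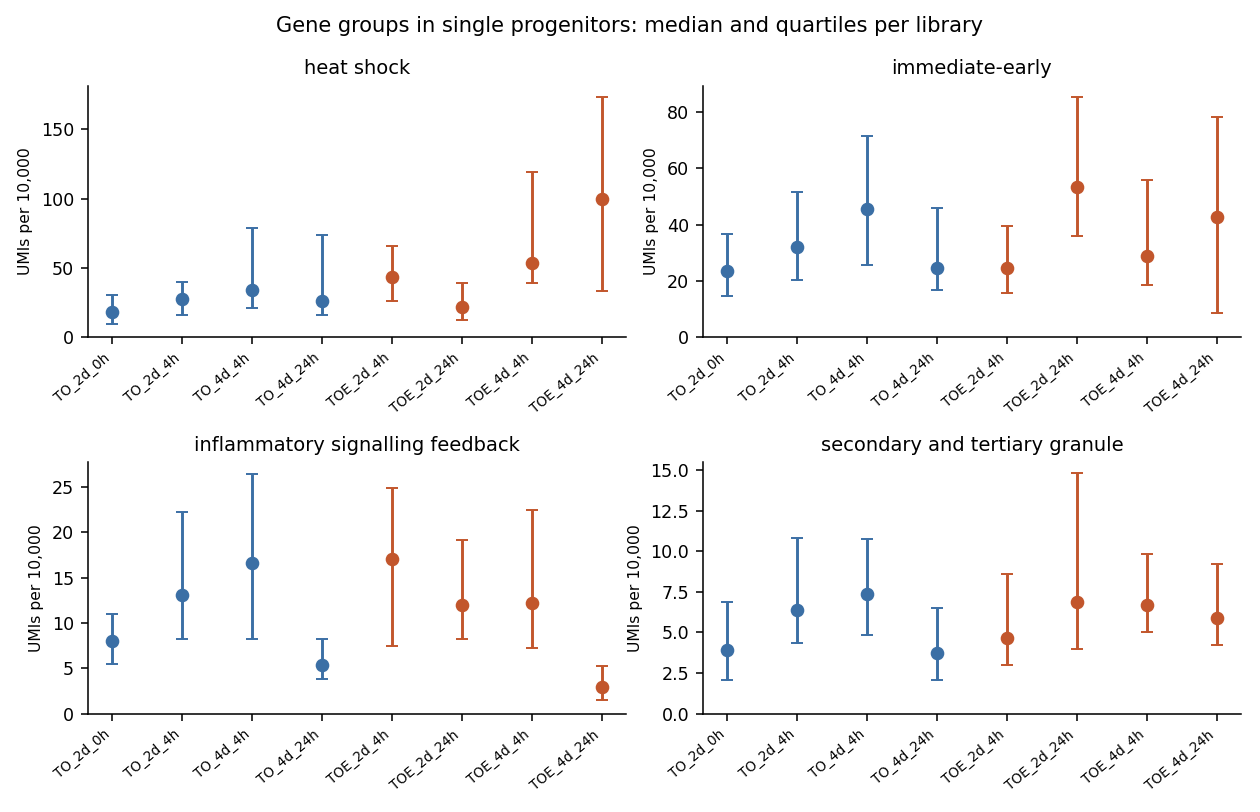
UMIs per 10000 of 4 gene groups in single progenitors, as the median (point) and quartiles (bars) of each library (TO blue, TOE orange). Heat shock reaches a median of 100.1 in TOE_4d_24h, where inflammatory feedback is lowest at 2.91, and the secondary and tertiary granule medians stay between 3.71 and 7.37.

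Secondary and tertiary granule genes were higher in TOE on day 4 in sum, and much of that sum lay in few cells. The list stood at 726 CPM in TO_2d_0h, 1038 in TO_2d_4h, 1075 in TO_4d_4h, 708 in TO_4d_24h, 1059.8 in TOE_2d_4h, 1274 in TOE_2d_24h, 2148 in TOE_4d_4h and 1416 in TOE_4d_24h, and Ltf, lactoferrin, stood at no more than 0.229 CPM in any library. The TOE over TO ratio was 1.02 at 2d_4h, 2.00 (95% counting interval 1.93 to 2.07) at 4d_4h and 2.00 (95% counting interval 1.92 to 2.08) at 4d_24h. At 4d_4h 5 of 10 genes were past 2-fold higher and 0 past 2-fold lower, beside 1.51% of all genes higher, and at 4d_24h 6 of 10 genes were past 2-fold higher and 0 past 2-fold lower, beside 6.09% and 2.19%. The median log2 ratio was 0.96 and 1.38 in these pairs, against -0.02 and 0.03 for all genes. Lcn2, lipocalin 2, stood at 46.2 CPM in TO and 264 in TOE at 4d_4h, Ngp at 306 and 689 CPM and Camp at 401 and 759 CPM. The 5 progenitors richest in the list held 43.8% of its UMIs in TOE_4d_4h and 47.1% in TOE_4d_24h, against 31.7% and 28.3% in the TO libraries. Without those cells the ratios were 1.64 and 1.5. The median cell held 7.37 UMIs per 10000 in TO_4d_4h and 6.68 in TOE_4d_4h, the opposite direction, and 3.71 and 5.92 at 4d_24h. Camp was also found in 30.9% of thinned Cd79-marked cells, beside 43.3% of progenitors, and the list in Cd79-marked cells was 0.748 and 1.93 times the TO level in these pairs. The part of free RNA in the result was not tested.

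Late neutrophil genes were higher in TOE in sum in the same pairs. Their sum stood at 7574 CPM in TO_2d_0h, 7689 in TO_2d_4h, 5971 in TO_4d_4h, 4408 in TO_4d_24h, 7939.6 in TOE_2d_4h, 13768 in TOE_2d_24h, 10830 in TOE_4d_4h and 9553 in TOE_4d_24h, with TOE over TO at 1.03, 1.81 and 2.17 over the pairs. S100a8 and S100a9 gave most of it, with S100a8 at 1430 CPM in TO_4d_24h and 4121 in TOE_4d_24h. At 4d_4h 1 of 8 genes were past 2-fold higher and 0 past 2-fold lower, beside 1.51% and 1.44% of all genes, and at 4d_24h 1 of 7 genes were past 2-fold higher and 1 past 2-fold lower, the last being Il1b, beside 6.09% and 2.19%. The median progenitor held 21.6 UMIs per 10000 in TO and 24.2 in TOE at 4d_4h, and 15.7 and 30.8 at 4d_24h. Without the 5 richest cells of each library the ratios were 1.58 and 1.95. In the other cells the 4d_4h ratio was 0.745 in Cd79-marked, 1.09 in neutrophil-marked and 2.19 in monocyte-marked cells, and the 4d_24h ratio 2.13 in Cd79-marked, 1.17 in neutrophil-marked and 1.49 in monocyte-marked cells. Defensins, in sum, were 0.733, 0.954 and 1.14 times the TO level. The median progenitor was lower in TOE in every pair, at 322 defensin UMIs per 10000 in TO and 23.2 in TOE at 2d_4h, 73.4 and 15.1 at 4d_4h, and 88.6 and 23.5 at 4d_24h, where the sum went the other way. The share of progenitors with 1000 or more defensin UMIs per 10000 was 39.8% in TO and 32.0% in TOE at 2d_4h, 34.2% and 27.3% at 4d_4h, and 27.8% and 29.9% at 4d_24h.

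Genes of DNA replication were higher in TOE in both 4 h pairs and in sum lower at 4d_24h. The S phase sum, enzymes and factors of DNA replication, stood at 1008 CPM in TO_2d_0h, 1147 in TO_2d_4h, 1082 in TO_4d_4h, 955 in TO_4d_24h, 1440.3 in TOE_2d_4h, 989 in TOE_2d_24h, 1567 in TOE_4d_4h and 824 in TOE_4d_24h. All 18 S phase genes were higher in TOE at 2d_4h and all 18 at 4d_4h, though 0 and 1 were past 2-fold, beside 2.27% and 1.51% of all genes, and 7 of 18 were higher at 4d_24h. The median log2 ratio was 0.27, 0.49 and -0.17, beside 0.13, -0.02 and 0.03 for all genes. The summed ratios were 1.26 (95% counting interval 1.22 to 1.30), 1.45 (95% counting interval 1.40 to 1.5) and 0.863 (95% counting interval 0.825 to 0.903). In the other cells the 2d_4h ratio was 1.46 in Cd79-marked, 1.18 in neutrophil-marked and 1.34 in monocyte-marked cells, higher in TOE there too, and the 4d_4h ratio 1.02 in Cd79-marked, 0.975 in neutrophil-marked and 1.05 in monocyte-marked cells. Pcna, the replication clamp, stood at 227 CPM in TO_4d_4h and 337 in TOE_4d_4h. The G2M list was 1.26, 0.880 and 1.10 times the TO level, and endoplasmic reticulum folding 1.31, 1.14 and 0.807 times, with Creld2 at 141 CPM in TO_2d_4h and 304 in TOE_2d_4h. Myeloid transcription factors as a list were 0.969, 0.814 and 1.05 times the TO level and early progenitor genes 1.16, 0.818 and 0.927 times. Monocyte lineage genes were 1.14, 1.30 and 0.935 times, and Cebpb, a stress-induced factor, stood at 159 CPM in TO_4d_24h and 89.8 in TOE_4d_24h.

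**Figure D5:**
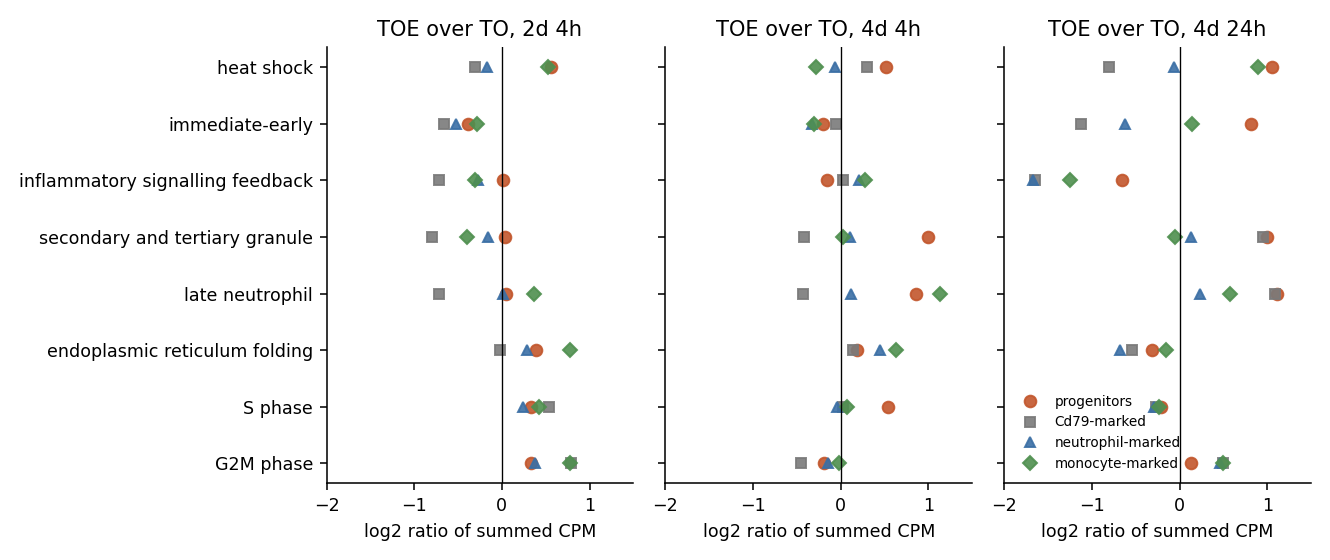
log2 ratio of TOE over TO of the summed level of 8 gene groups in each matched pair, for progenitors and for Cd79-marked, neutrophil-marked and monocyte-marked cells of the same libraries. Heat shock in progenitors lies right of 0 in all 3 pairs, and at 4d_24h inflammatory feedback lies left of 0 in all 4 populations while immediate-early genes lie to the right in progenitors and monocyte-marked cells alone.

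The genes with the largest ratios in each pair were often carried by few cells. At 2d_4h the largest differences upwards were a transcript listed as LOC103692723, which had no UMI in TO and 79 in 67 progenitors of TOE, LOC103691294, Tgm1, the class I antigen gene RT1-A3 and Ocln. LOC103692723 stood at 335 CPM in Cd79-marked cells of TOE_2d_4h and 0.290 in TO_2d_4h, so these cells differed in it too. RT1-A3 was broad, in 261 TOE and 64 TO progenitors, at 143 CPM (95% counting interval 135 to 150.4) in TOE against 19.0 (15.3 to 23.2) in TO. It too differed in neutrophil-marked cells, at 166 and 27.0 CPM. The largest differences downwards were Hpse2, LOC120095659, LOC120103601, the chemokine Cxcl1 and Stfa2l3, and 1 TO cell held 74.0% of the LOC120095659 UMIs and 62.8% of those of Stfa2l3.

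At 4d_4h the genes furthest up in TOE were Panx1, Ctsk, Lgals5, Lcn2 and the erythroid enzyme Alas2, and 1 progenitor held 81.9% of the Panx1 and 84.7% of the Ctsk UMIs in TOE. Those furthest down were Cdh4, a cadherin, LOC120095659, Sirpal1, Lat and Auts2. Cdh4 was broad, with 122 UMIs in 54 progenitors of TO and 10 in 10 of TOE, or 27.9 CPM (23.2 to 33.3) against 1.65 (0.793 to 3.04). At 4d_24h the genes furthest up were Col3a1, a transfer RNA gene listed as Trnastop-uca, Hhat, Trnav-uac_3 and Clec2l. A single cell held 97.4% of the Col3a1 UMIs of TOE. Those furthest down were the haemoglobin genes Hbb, Hba-a1, Hbb-b1 and Hbb-b2 and the red cell anion exchanger Slc4a1. Hba-a1 gave 2705 UMIs in 231 of 234 progenitors of TO_4d_24h and 16 in 15 of 177 in TOE_4d_24h, and stood at 1274 and 4.91 CPM in Cd79-marked cells. Haemoglobin RNA in cells that should lack it thus moved with this pair.

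Fabp4, She, Timp1 and Rhox5 were past 2-fold higher in TOE in all 3 pairs and LOC120095659 lower, and single cells carried part of this. With the richest progenitor of each library left out, a step chosen after the data were seen, 2 of the 5, Fabp4 and Rhox5, were still past 2-fold in every pair. Timp1 then stood at 7.83 CPM in TO and 6.88 in TOE at 4d_24h, with the direction turned, and Fabp4 at 3.22 and 7.47 CPM. She fell under 2-fold at 2d_4h, with a log2 ratio of 0.85, and LOC120095659 at 4d_24h, with -0.56. Timp1, an inhibitor of matrix metalloproteinases, stood at 18.6 CPM in TO_2d_0h, 3.23 in TO_2d_4h, 4.57 in TO_4d_4h, 8.24 in TO_4d_24h, 14.8 in TOE_2d_4h, 62.1 in TOE_2d_24h, 18.5 in TOE_4d_4h and 29.3 in TOE_4d_24h. A single progenitor held 76.7% of its UMIs in TOE_4d_24h and 44.2% in TOE_2d_24h, but at most 8.93% in TOE_2d_4h and TOE_4d_4h. In monocyte-marked cells Timp1 stood at 52.2 and 199.5 CPM at 2d_4h and 123 and 207 CPM at 4d_4h. The baseline TO_2d_0h, with no session, stood at 18.6 CPM in progenitors, above the 3 later TO libraries. Fabp4, a fatty acid carrier, stood at 12.7 CPM in TO_2d_0h, 5.04 in TO_2d_4h, 8.00 in TO_4d_4h, 4.04 in TO_4d_24h, 11.7 in TOE_2d_4h, 39.4 in TOE_2d_24h, 26.1 in TOE_4d_4h and 26.4 in TOE_4d_24h, with UMIs in fewer cells of TOE than of TO at 4d_24h, 4 of 177 against 18 of 234, and Rhox5 at 11 CPM in TO_4d_4h and 26.6 in TOE_4d_4h, in 3 and 12 cells. In other cells Fabp4 was lower in TOE at 4d_24h, at 11.5 and 1.16 CPM in Cd79-marked cells of TO and TOE. It stood at 19.1 and 0.837 CPM in neutrophil-marked and 76.2 and 12.3 CPM in monocyte-marked cells. In the 4 h pairs these cells went either way. She stood at 2.74 to 13.6 CPM. The summed mesenchymal markers beside these genes were 107 and 79.3 CPM at 2d_4h, 163 and 207 CPM at 4d_4h and 441 and 807 CPM at 4d_24h, in TO and TOE in that order, and their part in the result was not tested.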

How the data were processed

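Tissue of the tibial osteotomy site was made into single-cell libraries by the 10x Chromium 3′ method, and the authors deposited filtered matrices of raw UMI counts, from Cell Ranger 9.0.0 per the file headers. The submitters' processing notes list mRatBN7.2 as a genome build. Reads matching several genes equally are not counted by that tool, which lowers near-identical copies such as defensins. Counts were used as deposited in 8 libraries, over 41801 genes. Counts were summed over progenitors per library and given per 1000000 UMIs (CPM), with log2 ratios made after adding 0.5 UMI. No ambient correction or doublet caller was run, and cells with markers of another type were counted and left out as an alternative. Shares were compared after thinning each cell to 3000 UMIs (1000 Cd79-marked cells per library). Intervals are exact binomial for shares and Poisson or conditional binomial for levels and ratios, at 95%, for counting error alone. With 1 library per condition no test was made, and 3 pairs could give no sign-flip p below 0.25. Named genes were the chosen genes, the markers, members of 18 lists and, by rule, the 5 furthest up and down in each pair and against each other population (15 upwards against all other cells), apart from genes not reported here. The cells and lists were chosen with earlier results of these data known. Python 3.11.15, numpy 2.4.6, scipy 1.17.1 and pandas 2.3.3 were used.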

Additional observations from a re-analysis of the deposited data

Results flagged for a closer look

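The share of progenitors in TOE over TO was 1.46 at 2d_4h and 0.865 at 4d_24h, in opposite directions, and the difference between the pairs was not tested.

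Cells with at least 20 of the 4 transcripts per 10000 but under 3000 UMIs were outside the definition. They numbered 69 in TO_2d_0h, 631 in TO_2d_4h, 78 in TO_4d_4h, 143 in TO_4d_24h, 201 in TOE_2d_4h, 142 in TOE_2d_24h, 23 in TOE_4d_4h and 26 in TOE_4d_24h. Of the 631 in TO_2d_4h, 618 carried haemoglobin markers, against 0 to 54 in the other libraries, and their median depth was 1827 UMIs. In these cells Prtn3 gave 23.4% of the 4-gene UMIs, and in the progenitors of the same library 22.7%.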

How the results depend on the processing

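The 2d_4h share ratio was 0.408 with a minimum of 1000 UMIs, where the haemoglobin-marked cells of TO_2d_4h enter, and 1.32 to 1.5 under the other 8 settings. The 4d_4h ratio lay between 0.933 and 1.15, on either side of 1, and the 4d_24h ratio between 0.778 and 0.860. Genes past 2-fold at 2d_4h, 4d_4h and 4d_24h, 319, 285 and 767 in both directions together, were 657, 625 and 1427 with at least 20 UMIs and 74, 80 and 200 with at least 200, and giving each progenitor equal weight they were 467, 509 and 1274. A UMI minimum sets how many low genes are compared, and the share past 2-fold moved too. With at least 20, 50 and 200 UMIs it was 5.53%, 3.13% and 1.04% at 2d_4h. The shares were 5.46%, 2.95% and 1.31% at 4d_4h and 12.7%, 8.28% and 3.81% at 4d_24h. A prior of 2 UMIs, median centring, co-marked cells left out and a threshold of 50 per 10000 left each main total within 1.5 times. Centring still took the 232 higher at 2d_4h to 149, and the threshold of 50 took the 203 lower at 4d_24h to 131. Chosen after the data were seen, list ratios without co-marked cells or without the 5 richest cells kept their direction in each pair, except that receptors at 2d_4h stood at 1.00 and at 0.979 without co-marked cells. The richest cell of each library left out turned Timp1 at 4d_24h to a log2 ratio of -0.17. Each condition is 1 library, with no replicate numbers shared, and a paired model that takes the 3 pairs, which differ in day or hour, as replicates was not run. Depth limits genes of a few UMIs per library, such as Mecom, Procr and Hlf.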

Other observations

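Cells with mast cell and basophil markers were the next group of co-marked progenitors after the 159 with B cell markers. They numbered 67 of 241, with 19 in TO_4d_24h and 1 in TO_2d_0h. Mcpt8, a granule protease of basophils, stood at 123 CPM in TO_2d_0h, 149 in TO_2d_4h, 384 in TO_4d_4h, 327 in TO_4d_24h, 218 in TOE_2d_4h, 96.1 in TOE_2d_24h, 194 in TOE_4d_4h and 423 in TOE_4d_24h over all progenitors. Ms4a2, the beta chain of the IgE receptor, stood at 12.5 to 30.1 CPM, while Cpa3, carboxypeptidase of mast cells, stayed at 1.41 CPM or less outside TO_2d_4h, where it stood at 14.7 CPM. The other listed markers were low, Prss34 at 0 to 10.2 CPM and Gata1 at 0.235 to 2.35 CPM. Mcpt8 thus gave most of the summed markers in every library.

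Transcripts of vesicle proteins that the study followed were present in progenitors. The sum of Flot1, Flot2, Cd63, Cd81, Cd9, Rab27a and Tsg101 was 979 to 1505 CPM, at 1.13, 1.07 and 0.814 times the TO level over the pairs, with none of the 7 past 2-fold, beside 2.27% and 0.853% of all genes higher and lower at 2d_4h, 1.51% and 1.44% at 4d_4h and 6.09% and 2.19% at 4d_24h. Over the 4 defensin classes Cd63 stood at 344, 599, 1096 and 1688 CPM and Flot1 at 36.5, 45.6, 116 and 342 CPM. Receptors for cytokines and growth factors summed to 496 to 697 CPM with 0, 0 and 1 of 13 past 2-fold higher in the pairs, beside 2.27%, 1.51% and 6.09% of all genes. Interferon-stimulated genes summed to 111 to 182 CPM, with Isg15, Mx1 and Mx2 at 1.68 CPM or less in every library.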
